A study of Mus musculus with 4 samples.

Results

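The genes described here encode the DNA-binding subunits of NF-κB and the proteins that restrain or modulate it. They are 10 named genes, *Nfkb1*, *Nfkb2*, *Rela*, *Relb*, *Rel*, *Nfkbia*, *Nfkbie*, *Nfkbiz*, *Bcl3* and *Tnfaip3*. Each was taken by name from the annotation of the probe sets (the groups of probes that report 1 transcript), using probe sets with exactly 1 gene symbol and, had a gene several, the one with the highest mean signal. In this way 9 of the 10 genes were found among 22180 measured genes, each by 1 probe set, and *Nfkb1* was not analysed here.

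Glomerular RNA was measured on 4 arrays, 2 from *Gak*-KO mice and 2 from control mice, each made from glomeruli of 3 pooled mice, in 2 independent experiments. *Gak*-KO mice carried *Gak* fl/fl, in which loxP sites flank exon 1 of the cyclin G-associated kinase gene, together with Pod-Cre, whose podocin promoter restricts Cre to podocytes, and Rosa-Dtr fl, a knock-in of the diphtheria toxin receptor. The control mice were Cre-negative *Gak* fl/fl littermates, and both groups were C57BL/6 mice of 3 weeks of age by the labels (a legend of the study gives another age for its heatmap). Each *Gak*-KO array was set against the control array of its own number, and these are called pair 1 and pair 2. By the labels pair 1 came from male mice and pair 2 from female mice, so the sex label and the experiment cannot be told apart. *Xist*, the RNA that coats the inactive X chromosome, had log2 signals of 9.61 and 9.21 in *Gak*-KO 1 and 2 and of 9.69 and 8.55 in control 1 and 2, so it was higher on the arrays labelled male in both groups, which goes against those labels. *Uty*, a Y-linked gene, had 5.59 and 5.57 in *Gak*-KO 1 and 2 and 4.65 and 6.00 in control 1 and 2, nearly equal on the *Gak*-KO arrays and different within each pair. The sexes in a pool may therefore differ between the genotypes of a pair, and their part in the results was not tested. *Gak* itself had log2 signals of 8.64 and 8.39 in *Gak*-KO and of 8.25 and 8.35 in control glomeruli. The deletion is limited to podocytes, 1 cell type of several in a glomerulus, and where in *Gak* the probes lie is not given in the sources used here, so these values do not check the deletion.

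NF-κB is a family of dimeric transcription factors that share the Rel homology domain. In resting cells the dimers are held inactive, mostly in the cytoplasm, by IκB proteins. Signals from cytokine receptors and pattern recognition receptors activate the IκB kinase complex, which marks IκB for degradation and lets the dimer act on DNA. Several genes of the system are themselves classical NF-κB targets, *Nfkbia* and *Tnfaip3* among them, so that the pathway restrains itself. In the kidney, NF-κB drives inflammatory genes in podocytes, endothelium and infiltrating leukocytes. Among other questions on this pathway, the study asked whether calpain cleaves IκBα, the product of *Nfkbia*, in podocytes that lack *Gak*. It also examined the phosphorylation, activity and promoter binding of p65, the product of *Rela*. The arrays measured RNA and hold no value for protein, cleavage or nuclear entry.

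The largest differences were among the inhibitors and regulators. *Bcl3* was 2.10-fold higher in *Gak*-KO than in control glomeruli and *Tnfaip3* 1.60-fold higher (means of 2 pairs), and both passed a *Z*-ratio criterion in both pairs. The methods name the *Z*-ratio and its limit without the formula, so the form used here may not be the authors' own, and calls near the limit depend on it. For the *Z*-ratio each array is scaled to *Z* scores, the scores of paired arrays are subtracted, and every difference is expressed in units of its SD across the genes. A gene counted as called when its *Z*-ratio went beyond the limit that the methods name, just under 2.0, in the same direction in pair 1 and in pair 2, a criterion that gives no p value. Of the 9 measured genes 2 were called higher, 0 lower and 7 were not called. Over all genes the criterion called 0.509% higher and 0.234% lower. In limma, which here took the pair into account, the adjusted p value was 0.833 for each of the 9 genes, and no gene of the 22180 passed 0.05. An unadjusted p value under 0.05 was found for 1204, near the number that this threshold lets through when no gene differs.

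**Figure D1:**
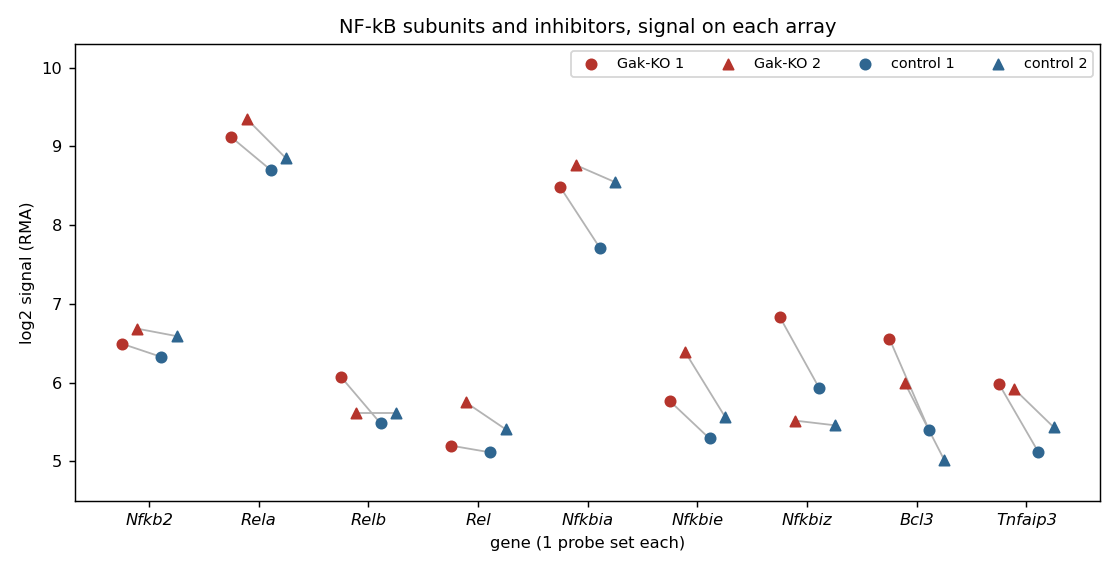
Log2 signal (vertical axis) of each of the 9 genes on each of the 4 arrays, *Gak*-KO in red left of control in blue, circles for arrays 1 and triangles for arrays 2, with a grey line joining the arrays of a pair. The *Gak*-KO arrays both lie above the control arrays for *Rela*, *Nfkbie*, *Bcl3* and *Tnfaip3*, and the line of *Relb* in pair 2 is flat. The heights of different genes should not be set against each other, since each has its own probes.

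The promoters of several of these genes hold matches to the κB consensus, a pattern of the short sequences that NF-κB dimers bind. RefSeq promoter windows of GRCm38.p6, from 250 bases before to 50 bases after a transcription start, were searched on both strands for this consensus. It was written as GGGRNYYYCC, with R a purine, N any base and Y a pyrimidine. At least 1 match was found for 5 of the 7 genes with an entry, *Nfkb2*, *Rel*, *Nfkbia*, *Bcl3* and *Tnfaip3*, and in 7 of their 10 windows. Across all RefSeq windows and genes searched, 5.8% of 32851 windows and 6.55% of 27025 genes held a match. The 7 windows are not independent, since those of *Nfkb2* start 2 and start 3 overlap and share 1 match. Stretches around the first start of each are printed 5′ to 3′ on the strand of the gene, from 130 bases before to 20 bases after the start, with every match in capitals. *Bcl3* and *Tnfaip3* are shown as the called genes, *Nfkbia*, *Nfkb2* and *Rel* as the others with a match, and *Nfkbie* as a gene whose arrays also did not overlap but whose window held no match.
Bcl3, chr7:19822736-19822885, minus strand: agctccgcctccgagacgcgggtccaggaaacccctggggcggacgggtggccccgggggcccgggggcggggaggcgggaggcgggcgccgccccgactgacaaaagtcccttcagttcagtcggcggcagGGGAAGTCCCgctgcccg
Tnfaip3, chr10:19015391-19015540, minus strand: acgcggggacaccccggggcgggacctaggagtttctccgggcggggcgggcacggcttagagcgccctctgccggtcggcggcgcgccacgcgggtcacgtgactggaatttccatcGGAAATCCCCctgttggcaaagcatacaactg
Nfkbia, chr12:55492628-55492777, minus strand: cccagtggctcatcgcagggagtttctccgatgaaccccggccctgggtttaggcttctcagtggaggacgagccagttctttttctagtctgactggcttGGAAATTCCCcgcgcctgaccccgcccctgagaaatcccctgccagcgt
Nfkb2, chr19:46304607-46304756, plus strand: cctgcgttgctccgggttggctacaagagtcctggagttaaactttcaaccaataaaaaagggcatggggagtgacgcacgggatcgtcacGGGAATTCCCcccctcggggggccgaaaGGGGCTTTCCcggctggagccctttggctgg
Rel, chr11:23770950-23771099, minus strand: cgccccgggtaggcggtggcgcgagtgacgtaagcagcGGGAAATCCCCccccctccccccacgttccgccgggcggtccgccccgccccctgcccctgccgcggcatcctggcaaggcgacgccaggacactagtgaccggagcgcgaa
Nfkbie, chr17:45555570-45555719, plus strand: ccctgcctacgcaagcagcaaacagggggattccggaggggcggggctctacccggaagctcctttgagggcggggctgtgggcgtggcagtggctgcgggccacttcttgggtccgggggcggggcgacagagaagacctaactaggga
The match of *Bcl3* lies at 3 to 12 bases after its start, that of *Tnfaip3* at -12 to -3, that of *Nfkbia* at -29 to -20. *Nfkb2* start 1 holds a pair of matches, at -39 to -30 and -11 to -2, and its downstream windows share the match GGGACTTTCC, at 11 to 20 of start 2. In *Rel* 2 overlapping matches cover -92 to -82. No match was found in the windows of *Rela* and *Nfkbie* or at start 2 of *Tnfaip3*. *Nfkb1*, *Relb* and *Nfkbiz* were not searched. A match says that the letters are present and carries no measurement of binding.

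**Figure D2:**
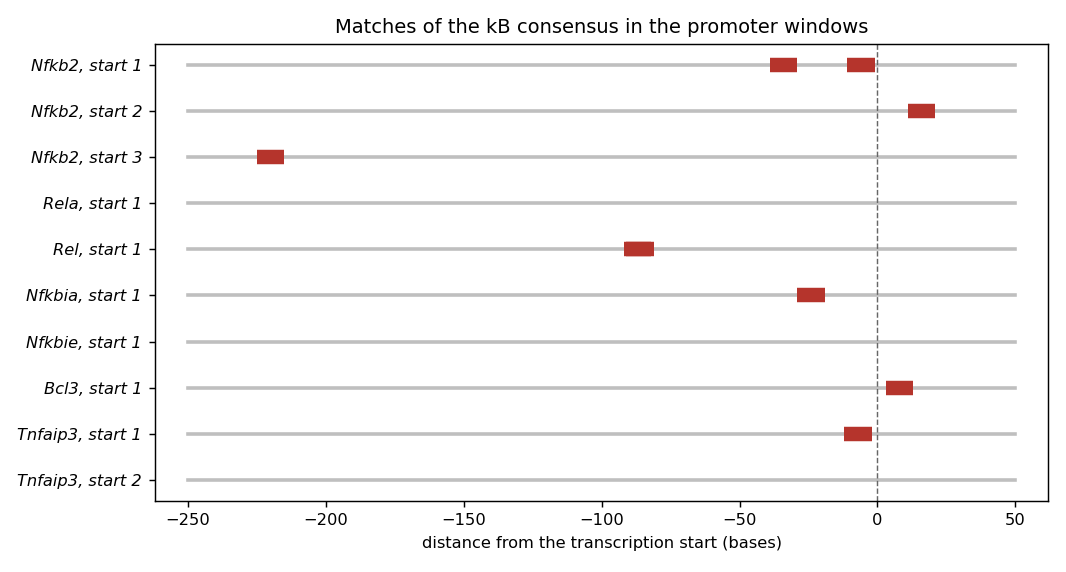
Matches of the κB consensus (red) in the RefSeq promoter windows (grey lines) of the 7 genes with an entry, 1 line for each start, by distance from the transcription start in bases (dashed line at the start). Most matches lie close to the start, the exceptions being *Rel* and the shared match seen from start 3 of *Nfkb2*.

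Among the DNA-binding subunits, *Rela* had the largest mean difference. It encodes RelA, the subunit with a transactivation domain in the most common dimer. *Rela* had log2 signals of 9.12 and 9.35 in *Gak*-KO 1 and 2, against 8.70 and 8.85 in control 1 and 2. Both *Gak*-KO arrays lay above both control arrays. The difference was 0.42 in pair 1 and 0.50 in pair 2 on the log2 scale, with a mean of 0.46 (SE 0.10, 95% interval 0.16 to 0.76, 1.38-fold). Its *Z*-ratio of 1.28 in pair 1 missed the limit and that of 1.98 in pair 2 passed it, so *Rela* was not called.

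*Rel* encodes c-Rel, a subunit best known from lymphocytes and myeloid cells. Its log2 signals were 5.20 and 5.75 in *Gak*-KO 1 and 2, against 5.12 and 5.41 in control 1 and 2. *Gak*-KO 1 lay between the control arrays, so the groups overlapped. The mean difference was 0.21 (SE 0.12, 95% interval -0.15 to 0.57), most of it from pair 2, where the *Z*-ratio was 1.39, against 0.306 in pair 1. Without *Gak*-KO 2 the fitted value was -0.06. That fit sets *Gak*-KO 1 against the control arrays of both experiments, while the difference within pair 1 was 0.09.

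*Relb* and *Nfkb2* encode the partners of the non-canonical pathway, in which NIK drives the processing of the *Nfkb2* product into a subunit that pairs with RelB. *Relb* had log2 signals of 6.07 and 5.62 in *Gak*-KO 1 and 2, against 5.48 and 5.62 in control 1 and 2. It was higher in pair 1 by 0.59, just short of the limit with a *Z*-ratio of 1.95, and its deposited values were exactly equal in pair 2. *Nfkb2* had log2 signals of 6.50 and 6.69 in *Gak*-KO 1 and 2, against 6.33 and 6.59 in control 1 and 2. The groups overlapped for both genes. The mean difference was 0.29 (SE 0.19, 95% interval -0.28 to 0.87) for *Relb* and 0.13 (SE 0.10, 95% interval -0.17 to 0.43) for *Nfkb2*. Without control 1 the fitted value of *Nfkb2* was -0.000715, in a fit that mixes the experiments. Within the pairs *Nfkb2* was higher by 0.17 in pair 1 and by 0.09 in pair 2. Of the 4 measured subunits 0 were called, and their median difference was 0.29 in pair 1 and 0.22 in pair 2.

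Of the cytoplasmic IκB proteins, IκBα is the fast, NF-κB-induced inhibitor and IκBε, the product of *Nfkbie*, a slower one. *Nfkbia* had log2 signals of 8.48 and 8.76 in *Gak*-KO 1 and 2, against 7.71 and 8.55 in control 1 and 2. *Gak*-KO 1 lay below control 2, and the gap of 0.83 between the 2 control arrays was larger than either difference within a pair. That gap also holds any difference between the 2 experiments, which the pairing removes. *Nfkbia* was higher by 0.77 in pair 1 with a *Z*-ratio of 2.48 and by 0.22 in pair 2 with a *Z*-ratio of 0.822, and was not called (mean 0.49, SE 0.18, 95% interval -0.06 to 1.04).

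*Nfkbie*, in contrast, had the larger difference in pair 2. Its log2 signals were 5.76 and 6.38 in *Gak*-KO 1 and 2, against 5.29 and 5.57 in control 1 and 2. The groups did not overlap. The difference was 0.47 in pair 1 with a *Z*-ratio of 1.57 and 0.81 in pair 2 with a *Z*-ratio of 3.32, which leaves *Nfkbie* uncalled in this form of the criterion by pair 1 alone (mean 0.64, SE 0.13, 95% interval 0.23 to 1.05, 1.56-fold). With a robust scale of the differences its *Z*-ratios were 2.02 and 4.71 and it was called.

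The nuclear IκB-like proteins, IκBζ from *Nfkbiz* and BCL3, bind NF-κB subunits on DNA and act there as coregulators. *Bcl3* had log2 signals of 6.56 and 6.00 in *Gak*-KO 1 and 2, against 5.40 and 5.02 in control 1 and 2. Both *Gak*-KO arrays lay above both control arrays, and the differences of 1.16 and 0.98 (2.23-fold and 1.97-fold) were larger than the gap between arrays of 1 group. Its *Z*-ratios of 3.82 and 4.01 ranked it number 71 in pair 1 and number 61 in pair 2 of the 22180 genes, counted from the highest, and the mean difference was 1.07 (SE 0.11, 95% interval 0.74 to 1.40).

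*Nfkbiz* had log2 signals of 6.84 and 5.52 in *Gak*-KO 1 and 2, against 5.93 and 5.46 in control 1 and 2. *Gak*-KO 1 stood above the other 3 arrays, and *Gak*-KO 2 lay between the control arrays. Its difference of 0.90 in pair 1 had a *Z*-ratio of 2.98, that of 0.06 in pair 2 a *Z*-ratio of 0.242, and the mean was 0.48 (SE 0.25, 95% interval -0.29 to 1.26). Without *Gak*-KO 1 the fitted value was -0.18. That fit sets *Gak*-KO 2 against the control arrays of both experiments, while the difference within pair 2 was 0.06.

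*Tnfaip3* encodes A20, a ubiquitin-editing enzyme that shuts down signalling to the IκB kinase complex. Its log2 signals were 5.98 and 5.92 in *Gak*-KO 1 and 2, against 5.12 and 5.43 in control 1 and 2. The *Gak*-KO arrays lay close together and above both control arrays. The difference was 0.87 in pair 1 with a *Z*-ratio of 2.87 and 0.49 in pair 2 with a *Z*-ratio of 1.99, a narrow pass, and the mean was 0.68 (SE 0.14, 95% interval 0.24 to 1.11). The call was lost under 4 other settings, among them quantile normalization, where the *Z*-ratio of pair 2 was 1.87.

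**Figure D3:**
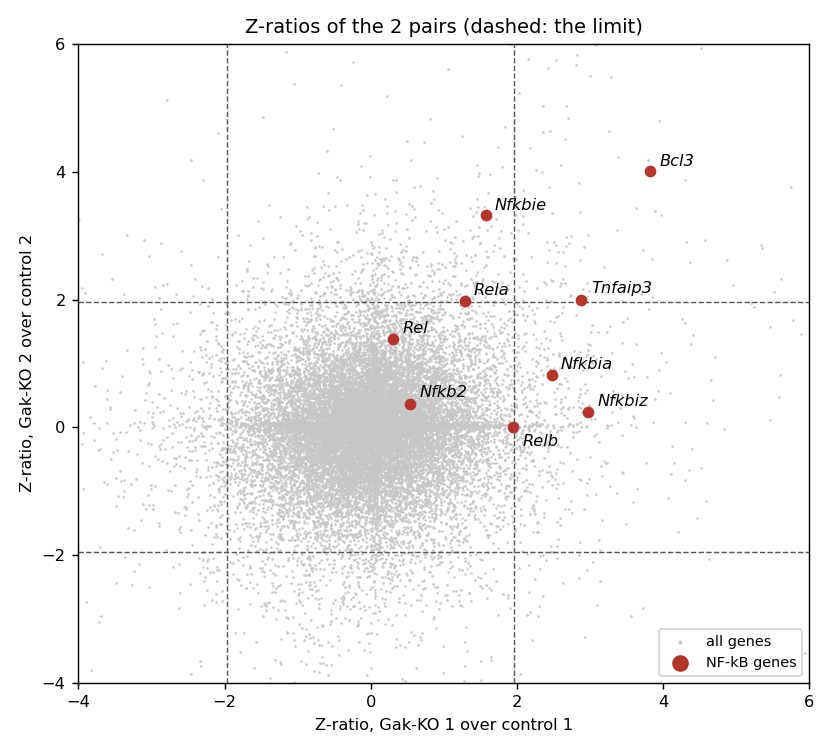
*Z*-ratio of each gene in pair 1 (horizontal axis) and pair 2 (vertical axis), grey points for all genes and red points for the 9 genes, with dashed lines at the limit, just under 2.0, in each direction. *Bcl3* and *Tnfaip3* lie in the upper right corner beyond both limits, *Nfkbia* and *Nfkbiz* pass in pair 1 alone, and *Rela* and *Nfkbie* pass in pair 2 alone. The axes run from -4 to 6, which leaves 85 genes outside the plot.

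Over the 9 genes, 4 passed the limit upwards in pair 1 (*Nfkbia*, *Nfkbiz*, *Bcl3* and *Tnfaip3*) and 4 in pair 2 (*Rela*, *Nfkbie*, *Bcl3* and *Tnfaip3*), where 2.88% and 3.01% of all genes did so. A difference above 0 in both pairs was found for 8 of the 9 genes, *Relb* being the exception, and for 22.3% of all genes. Both *Gak*-KO arrays lay above both control arrays for 4 of the 9, *Rela*, *Nfkbie*, *Bcl3* and *Tnfaip3*, and for 8.8% of all genes. The reverse was found for 0 of the 9 and for 1823 of the 22180 genes. The same 4 genes had an unadjusted p value under 0.05 in limma, as did 2.89% of all genes in that direction. The median difference of the 9 genes was 0.59 in pair 1 and 0.34 in pair 2, against 0.00 and 0.00 over all genes. For the 5 inhibitors and regulators it was 0.87 and 0.49.

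The rest of the pathway was described by lists of its other genes. Of 10 measured kinases of and above the IκB kinase complex 0 were called, with a median difference of 0.10 in pair 1 and 0.11 in pair 2. While 6 were higher in both pairs, as were 22.3% of all genes, 4 had opposite signs. In pair 1 alone 1 passed the limit upwards, as did 2.88% of all genes in that pair. It was *Map3k14*, which encodes NIK. *Map3k14* differed by 0.73 (*Z*-ratio 2.45) in pair 1 and by 0.20 (*Z*-ratio 0.862) in pair 2. Both *Gak*-KO arrays lay above both control arrays for 2 of the 10 kinases, *Map3k14* and *Tbk1*, and for 8.8% of all genes. *Ikbkb*, the catalytic kinase of the canonical route, had log2 signals of 8.58 and 8.21 in *Gak*-KO 1 and 2, against 8.27 and 8.10 in control 1 and 2. *Ikbkg*, which encodes the scaffold NEMO, had 6.17 and 6.19 in *Gak*-KO 1 and 2, against 6.04 and 6.18 in control 1 and 2. *Ikbkb* was slightly higher in each pair and overlapped between the groups, and *Ikbkg* was nearly equal in pair 2. *Chuk* was not analysed here.

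The other IκB and IκB-like genes and the adaptors gave no calls either. Of 3 further IκB and IκB-like genes 0 were called, with medians of 0.16 and 0.08. The largest difference was that of *Nfkbil1*, 0.51 in pair 1 (*Z*-ratio 1.69) and 0.21 in pair 2 (*Z*-ratio 0.862), and its groups did not overlap. *Nfkbib*, which encodes IκBβ, had log2 signals of 7.16 and 7.06 in *Gak*-KO 1 and 2, against 7.0 and 6.98 in control 1 and 2, and *Nfkbid* differed by 0.00 in pair 1 and 0.04 in pair 2. Of 21 measured receptor adaptors and ubiquitin regulators 0 were called, with medians of 0.10 and 0.08. Both *Gak*-KO arrays lay above both control arrays for 5 of the 21, among them *Birc3* (0.46 and 0.34), and for 8.8% of all genes. They lay below both control arrays for 2 of the 21 and for 1823 of the 22180 genes. The calpain genes, which the study places upstream of IκBα, gave 0 calls among 3 measured. *Capn2*, the catalytic subunit of calpain-2, differed by 0.20 and 0.24, *Capns1*, the shared small subunit, by 0.06 and 0.24, and *Cast*, the inhibitor calpastatin, by 0.13 and 0.10. *Capn1* was not analysed here.

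Among 40 measured target genes of NF-κB 3 were called higher and 0 lower, *Gadd45b*, *Cxcl10* and *Lcn2*, where 0.509% of all genes were called higher and 0.234% lower. *C3*, *Bcl2a1b* and *Bcl2a1d*, also on the list, were not analysed here. *Gadd45b*, a stress-induced gene that acts on p38 and JNK signalling and that the study followed, had log2 signals of 7.49 and 7.76 in *Gak*-KO 1 and 2, against 6.74 and 6.62 in control 1 and 2. *Cxcl10*, a chemokine that attracts T cells and is also induced by interferon, had 7.22 and 6.27 in *Gak*-KO 1 and 2, against 5.02 and 4.74 in control 1 and 2. *Lcn2*, a siderophore-binding protein released by injured tubules and by neutrophils, had 9.20 and 8.24 in *Gak*-KO 1 and 2, against 6.82 and 7.39 in control 1 and 2. For each of the 3 both *Gak*-KO arrays lay above both control arrays, as they did for 12 of the 40 targets and for 8.8% of all genes. The reverse was found for 1 of the 40 and for 1823 of the 22180 genes. The mean differences were 0.95 (SE 0.14) for *Gadd45b*, 1.86 (SE 0.21) for *Cxcl10* and 1.62 (SE 0.44) for *Lcn2* (limma adjusted p = 0.833 each). The median of the 40 targets was 0.31 in pair 1 and 0.06 in pair 2, and 12 of them passed the limit upwards in pair 1 but 6 in pair 2. Of all genes 2.88% and 3.01% did so. The promoter window of *Cxcl10* held overlapping κB matches at -104 to -94, and no match was found in those of *Gadd45b* and *Lcn2*, whose promoters were not searched beyond these 300 bases.

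**Figure D4:**
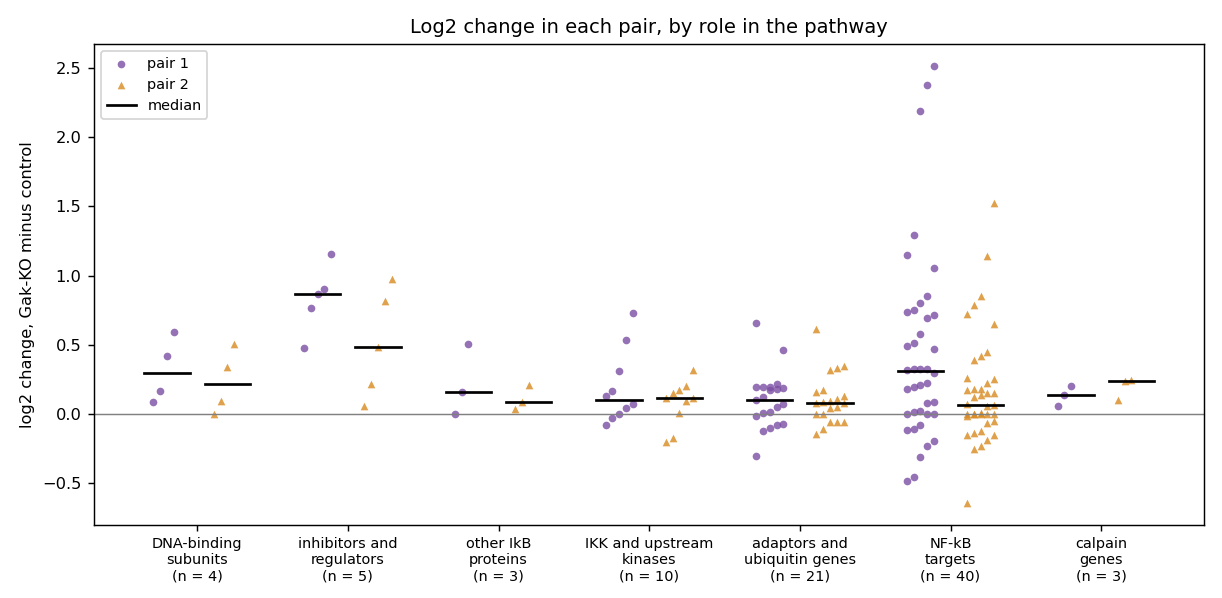
Log2 difference of *Gak*-KO minus control (vertical axis) in pair 1 (purple circles) and pair 2 (orange triangles) for the genes of each role, 1 point a gene, with black bars at the medians and the number of measured genes under each role. The inhibitors and regulators have medians of 0.87 and 0.49, and the kinases and the adaptors have medians between 0.08 and 0.11.

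These values are of bulk glomeruli, in which more cells of a type and more RNA per cell cannot be told apart. Of 13 macrophage and monocyte markers 2 were called higher, *Cd68* (0.80 and 0.62 in pairs 1 and 2) and *Mpeg1* (0.80 and 1.18), and 0 lower, against 0.509% and 0.234% of all genes. The mean log2 signal of the list was 4.76 and 5.19 in *Gak*-KO 1 and 2, against 4.58 and 4.81 in control 1 and 2, and *Adgre1* and *Ccr2* of the list lay in the lowest 30% of genes by signal. Neutrophil markers gave 0 calls among 7 and a mean log2 signal of 3.36 and 3.43 in *Gak*-KO 1 and 2, against 3.45 and 3.37 in control 1 and 2, with 4 of the 7 in that lowest range. T and B lymphocyte markers gave 0 calls among 8 measured and a mean of 3.68 and 3.37 in *Gak*-KO 1 and 2, against 3.77 and 3.46 in control 1 and 2. Of the 13 markers 7 were higher in both pairs, 1 (*Adgre1*) was lower in both, 1 (*Fcgr1*) was equal in pair 2 and 4 had opposite signs, among them *Lyz2* (-0.70 and 0.95) and *Csf1r* (-0.26 and 0.80). The median difference of the list was 0.13 in pair 1 and 0.32 in pair 2, and the part of these markers in the differences of the NF-κB genes was not tested.

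No podocyte, endothelial or mesangial marker was called, and none lay in the lowest 30% of genes by signal. The mean log2 signal of 6 measured podocyte markers was 7.72 and 9.0 in *Gak*-KO 1 and 2, against 7.94 and 8.82 in control 1 and 2, and that of 7 endothelial markers was 9.43 and 10.13 in *Gak*-KO 1 and 2, against 9.72 and 9.88 in control 1 and 2. Both means were lower in *Gak*-KO in pair 1 and higher in pair 2. That of 5 measured mesangial markers was 7.94 and 7.78 in *Gak*-KO 1 and 2, against 7.57 and 7.50 in control 1 and 2, higher in each pair. The 5 did not move together. While 4 were higher in both pairs, among them *Acta2* (0.81 and 0.30) and *Des* (0.53 and 0.72), *Pdgfrb* was lower in both (-0.13 and -0.18). Of 7 proximal tubule markers 1 was called lower, as were 0.234% of all genes. It was *Kap*, an androgen-regulated kidney gene, with differences of -2.32 and -1.23. The median difference of the list was -0.02 in pair 1 and -0.57 in pair 2. The mean of the list was 10.95 and 9.997 in *Gak*-KO 1 and 2, against 11.28 and 10.68 in control 1 and 2, so tubular RNA was present on every array. The part of these shifts in the differences of the NF-κB genes was not tested.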

How the data were processed

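Glomerular RNA of *Gak*-KO and control mice was measured on 4 arrays, 2 for each genotype. The authors deposited log2 signals made with RMA (background correction, normalization and summary of the probes of a probe set). Their processing notes name RMA and limma, with versions and annotation release not given in the sources used here. The probe set identifiers are those of a whole-transcript mouse array and not of the array type that the methods name. Raw arrays were not used here.

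Of 41345 probe sets, 23521 had 1 gene symbol, 1820 several and 16004 none, and the last 2 kinds were left out. The genes and lists were chosen with earlier results of these data known. Each of the 9 genes, the called genes of each list and a few preset pathway and label genes are named, with other list genes as examples picked after their values were seen. *Z*-ratios were computed in their usual form, which the methods do not spell out, at a limit of 1.96, and log2 differences with limma 3.58.1 (R 4.3.3; lmFit with terms for array number and genotype, then eBayes), with p values adjusted by Benjamini-Hochberg over all genes. There was 1 residual degree of freedom and the prior contributed 2.24 more. Without pairing, an exact permutation test of 2 against 2 arrays cannot go below p = 0.333. The fit was also run on simulated arrays with chosen variances and planted changes. That checks the code and does not say how many changes could be found in these data.

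Pairing follows the array numbers, which mark the experiments. Overlap of the groups was judged across both experiments and does not use the pairing. Within a pair, deviations from the group means correlated at 0.694, and 1421 probe sets had exactly equal values in pair 1, 3735 in pair 2 and 0 between arrays of different numbers. The median log2 signal was 4.32 and 4.14 on *Gak*-KO 1 and 2 and 4.28 and 4.13 on control 1 and 2. Alternatives tried were centring, quantile normalization, a fit without the pair, the mean of a gene's probe sets, an intensity trend, no genes of the lowest 30% of signal, a robust scale, *Z* scores over all probe sets, a limit of 2.58 and leaving out arrays or pairs. Promoters come from RefSeq on GRCm38.p6.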

Additional observations from a re-analysis of the deposited data

How the results depend on the processing

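The number of arrays, 2 in each group, limits the precision. Over all genes the *Z*-ratio criterion called 113 higher and 52 lower, against 240 and 151 with a robust scale, 48 and 11 at the stricter limit and 32 and 9 when every probe set entered the *Z* scores. In 1 pair alone it called 639 to 667 higher and 530 to 656 lower. Of the 9 NF-κB genes, 3 were called with the robust scale, which added *Nfkbie*, and 1 (*Bcl3*) when every probe set entered, at the stricter limit, without the genes of low signal and with quantile normalization. In each pair alone 4 of the 9 were called. *Bcl3* was called under each of these settings. Of the pathway lists, 3 genes were called, 5 with the robust scale, and 7 to 14 higher and 0 to 1 lower in 1 pair alone. The count was 2 at the stricter limit and 2 when every probe set entered the *Z* scores. It stayed at 3 without the genes of low signal, with the mean of a gene's probe sets and with quantile normalization. At the stricter limit the call of *Gadd45b* was lost, with *Z*-ratios of 2.45 in pair 1 and 4.64 in pair 2.

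In limma 0 genes passed an adjusted p of 0.05 with the replicate block, 0 without it, and 0 to 1 with arrays left out (*Fgg*, without *Gak*-KO 2). Without the replicate block 2 of the 9 genes, *Bcl3* and *Tnfaip3*, had an unadjusted p under 0.05, against 4 with it. All 9 kept their direction under the alternatives that used all 4 arrays. With 1 array left out, the fit compares arrays of different numbers. There the difference of *Nfkb2* ran from -0.000715 (without control 1) to 0.26, that of *Rel* from -0.0613 (without *Gak*-KO 2) to 0.49 and that of *Nfkbiz* from -0.18 (without *Gak*-KO 1) to 1.14, the lowest value having the opposite sign in each. *Bcl3* ran from 0.79 to 1.35 and *Tnfaip3* from 0.52 to 0.83. The cause was not tested.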

Other observations

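The following 5 of the NF-κB targets were picked after their values were seen, because they differed between the pairs, and they stand for no wider group. *Vcam1*, the endothelial receptor for leukocyte integrins, had log2 signals of 8.76 and 6.95 in *Gak*-KO 1 and 2, against 6.24 and 6.69 in control 1 and 2. *Icam1*, a second such receptor, had 7.44 and 6.74 in *Gak*-KO 1 and 2, against 6.14 and 6.32 in control 1 and 2, and *Ccl5*, a chemokine for T cells and monocytes, had 6.03 and 5.29 in *Gak*-KO 1 and 2, against 4.89 and 4.84 in control 1 and 2. For all 3, as for 8.8% of all genes, both *Gak*-KO arrays lay above both control arrays. The differences were 2.52, 1.30 and 1.15 in pair 1 and 0.26, 0.42 and 0.45 in pair 2. *Il1b* and the endothelial selectin *Sele* had opposite signs in the pairs, -0.48 and 0.79 for *Il1b* and -0.46 and 0.72 for *Sele*. Each pair holds 1 array of each genotype, so a difference between the pairs could not be tested.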
